A study of Mus musculus with 12 samples.

Results

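Inpp5f encodes a phosphatase of the Sac family that removes phosphate from membrane phosphoinositides. The 7 genes described with it form the chain those lipids feed: the PI3K catalytic subunits Pik3ca and Pik3cb, the PI3K regulatory subunit Pik3r1, the kinase Pdpk1, the kinases Akt1 and Akt2, and the kinase Gsk3b. The 8 genes were chosen by name, and all probe sets that the platform annotation assigns to one of them alone were used, 29 of 34945 single-gene probe sets (8 of 18193 genes). No probe set that the annotation assigns to several genes included one of the 8.

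The data came from single-colour expression arrays of cardiac ventricle from mouse embryos at embryonic day 16.5, with 3 independent ventricles in each of 4 genotypes. Hdac2-null embryos lacked Hdac2, a class I histone deacetylase, Hopx-null embryos lacked Hopx, a small homeodomain protein that does not bind DNA itself, and double-null embryos lacked both. Wild type embryos were the controls. The labels do not give the strain, the alleles or whether a Cre driver was used, and each array carried RNA of the whole ventricle, so fewer cells of a type and less RNA per cell cannot be told apart.

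PI3K, a dimer of a catalytic and a regulatory subunit, phosphorylates phosphoinositides at the membrane when insulin or insulin-like growth factor receptors are active. The lipid product recruits Pdpk1 and Akt, Pdpk1 phosphorylates Akt, and active Akt phosphorylates Gsk3b, which inhibits it. Lipid phosphatases oppose the first step. In the heart this chain is known for its part in growth, and in the adult mouse heart Hdac2 has been described as a repressor of Inpp5f. The question here is whether transcripts of the chain differed in fetal ventricles without Hdac2, without Hopx, or without both. The activity of the chain lies in lipid and protein phosphorylation, which these arrays do not measure.

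Histone deacetylases reach genes through proteins that bind DNA, and for that reason the letters around a transcript start of Inpp5f are shown. This start lies inside the annotated gene span, and so do most of the letters shown. In GRCm38.p6, the build of all positions given here, the gene spans bases 128611181 to 128696436 of chromosome 7, and the window runs from 250 bases before to 50 bases after a transcript start in the annotation, on the plus strand at chr7:128611115-128611414 (GRCm38.p6, sequence from RefSeq). Capitals mark GGGCGG and its reverse complement CCGCCC, the GC box that Sp-family factors bind.
Inpp5f: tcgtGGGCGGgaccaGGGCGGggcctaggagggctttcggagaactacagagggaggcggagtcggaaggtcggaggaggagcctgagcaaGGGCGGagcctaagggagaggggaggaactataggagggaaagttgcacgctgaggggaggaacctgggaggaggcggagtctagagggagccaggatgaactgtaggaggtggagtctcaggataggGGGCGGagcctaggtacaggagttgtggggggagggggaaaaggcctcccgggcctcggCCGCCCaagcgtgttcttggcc
The window held 5 such boxes, 4 as GGGCGG and 1 as CCGCCC. At least 1 box was found in 35.7% of all 32851 windows of 300 bases in the same table, and 5 or more in 2.71%. Of the 14 windows of the 8 genes, 7 held a box, and the window of Gsk3b held none. A window of Pdpk1 and a window of Akt1 also held 5 boxes, so that number was not particular to Inpp5f. Windows of Pik3cb and Pik3r1 held 4, and those of Pik3ca and Akt2 held at most 1. The boxes are a description of the letters, and binding was not measured.

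The deposited values are intensities on a linear scale. Signals under a floor of 82.5 units were raised to it before log2 transformation. Of the 29 probe sets, 22 could be tested, as they rose above the floor on at least 1 array, and all of these except 1 of Akt1 and 1 of Gsk3b were above it on all 12. The other 7 were below it on all 12 arrays. Differences were tested with limma's moderated test over all 15712 tested single-gene probe sets, with p-values adjusted by Benjamini and Hochberg's method, and a probe set was called at an adjusted p under 0.05. No probe set of the 8 genes was called in any of the 7 comparisons, in which between 0% and 0.0382% of all tested probe sets were.

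All 12 arrays carried high signals for the 6 heart muscle markers, most of which atrial muscle expresses too, with Tnnt2, cardiac troponin T, between 40652 and 42920 units. Hdac2 followed the labels, at 4.05 ± 0.0049 units in Hdac2-null and 4.15 ± 0.148 units in double-null ventricles, against 4839 ± 314 units in wild type (SD, n = 3 each). Hopx signal at its brighter probe set was 1992 ± 111 units in ventricles lacking only Hopx and 1700 ± 38.6 units in those lacking both genes, against 9817 ± 2082 units in wild type, and stayed above the floor. At the dimmer one it was 11.9 ± 1.94 units and 9.71 ± 0.0111 units in the same groups, below the floor, against 787 ± 322 units in wild type. Whether these probe sets fall within the deleted sequence is not stated in the labels. Xist, which marks an inactive X chromosome, exceeded the floor on 5 of 12 arrays, namely the first of each genotype and the second of wild type, so the genotypes were not balanced for it. The log2 ratio of the 3′ to the 5′ Gapdh control probe set, a measure of RNA integrity, reached 1.33 in wild type 1, with 0.84 to 1.07 in the other 11 ventricles. The same ratio for beta-actin lay between 2.63 and 2.80 over the arrays, with wild type 1 at 2.76. Of the cell type markers, the sum of 3 atrial markers was lower on the 9 null arrays, at 25192 to 31246 units, against 32941 to 34090 units in wild type. The sum of 3 macrophage markers did not overlap either, at 4593 to 4899 units in Hdac2-null, 4878 to 5256 units in Hopx-null and 4380 to 5064 units in double-null ventricles, against 5360 to 5959 units in wild type. The sum of 4 fibroblast markers was 41587 to 42791 units in Hdac2-null ventricles, against 43921 to 45974 units in wild type. That sum overlapped with wild type in the other null genotypes. Heart muscle, endothelial, epicardial and erythroid sums overlapped with wild type in every null genotype. The liver sum did too except in Hdac2-null, at 52.4 to 569 units, against 21.4 to 38.9 units in wild type. Its markers were below the floor on most arrays, and 2 neural markers were below it on all arrays. Most of the atrial sum was Myl4, at 18242 to 23586 units over the 12 arrays. The other atrial markers were Myl7, at 5908 to 12541 units, and Sln, at 41.3 to 1616 units. Whether that sum reports atrial tissue was not tested. Lack of overlap was not rare among single probe sets. Between Hdac2-null and wild type 10.5% of all tested probe sets did not overlap, in either direction. That share was 4.7% for Hopx-null against wild type and 15.7% for double-null against wild type. The part of cell makeup in the values below was not tested.

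Inpp5f, the phosphatase, was measured by 3 probe sets. The brightest, 1433542_at, gave 2069, 2576 and 1941 units in Hdac2-null ventricles 1 to 3. It gave 1777, 1562 and 1738 units in Hopx-null ventricles and 2308, 2873 and 1917 units in double-null ventricles, against 2471, 1540 and 2625 units in wild type. The 3 Hopx-null values lay close together near the bottom of the range, while wild type spanned the lowest of the 12 arrays, wild type 2, to the second highest, wild type 3. By group mean the order was 2366 ± 481 units in double-null, 2212 ± 587 units in wild type, 2196 ± 336 units in Hdac2-null and 1693 ± 115 units in Hopx-null ventricles (SD, n = 3 each). The first 2 steps down that order were smaller than the SDs of the groups beside them. The last step, between Hdac2-null and Hopx-null, was larger than both SDs, and the arrays of those groups did not overlap. That pair was picked from the order of the means and was not among the 7 comparisons tested. At the dimmer tested probe set, given below, these groups overlapped. There Hdac2-null arrays lay at 428 to 491 units and Hopx-null arrays at 284 to 464 units.

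For loss of Hdac2 alone the Inpp5f estimate was near 0, with a wide interval. The log2 fold change of Hdac2-null against wild type was 0.02 (SE 0.21, 95% interval -0.44 to 0.47, adjusted p = 1). On the linear scale that interval runs from 0.738-fold to 1.39-fold. Double-null against wild type gave 0.12 (SE 0.21, interval -0.34 to 0.57, adjusted p = 0.895), and the groups overlapped in both comparisons. The sign of both estimates rested on single arrays. Without wild type 2 they were -0.23 (adjusted p = 0.772) and -0.13 (adjusted p = 0.876), the first was -0.10 without Hdac2-null 2, and the second was -0.034 without double-null 2.

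Hopx-null ventricles had the lowest Inpp5f group mean, and the comparison with wild type did not pass the test. The log2 fold change was -0.35 (SE 0.21, interval -0.80 to 0.10, adjusted p = 1), with wild type 2 below all 3 Hopx-null arrays. It was -0.59 (adjusted p = 0.939) without wild type 2 and -0.21 (adjusted p = 1) without wild type 3. All 3 double-null arrays lay above every Hopx-null array, a difference that did not pass the adjusted test. The log2 fold change of double-null against Hopx-null was 0.47 (SE 0.21, interval 0.01 to 0.92), 1.38-fold, with an unadjusted p of 0.0455 and an adjusted p of 0.619 in the limma fit. Groups lay apart in that direction for 2 of the 22 probe sets, both of Inpp5f, against 5.72% of all tested probe sets, and in the other direction for 0 of 22, against 8.88% of all.

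The dimmer tested Inpp5f probe set, 1447757_x_at, carries a suffix that Affymetrix gives to sets with probes shared with other sequences. It gave 444, 491 and 428 units in Hdac2-null ventricles, 464, 284 and 438 units in Hopx-null ventricles and 525, 643 and 473 units in double-null ventricles, against 547, 282 and 598 units in wild type. Wild type 2 was again the lowest array and double-null 2 the highest, and double-null lay above Hopx-null on every array. Log2 fold changes against wild type were 0.01 (SE 0.28) in Hdac2-null, -0.22 (SE 0.28) in Hopx-null and 0.26 (SE 0.28) in double-null ventricles. Double-null against Hopx-null gave 0.49 (SE 0.28, adjusted p = 0.688). The third probe set, 1442100_at, lay under 5 units on all arrays, far below the floor, and was not tested.

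Taken by Hdac2 status, Inpp5f signal had a lowest, median and highest value of 1917, 2189 and 2873 units on the 6 arrays without Hdac2, against 1540, 1758 and 2625 units on the 6 arrays with it. The ranges overlapped. The log2 difference was 0.24 (SE 0.15, interval -0.08 to 0.56, adjusted p = 0.64 in the limma fit), or 1.18-fold with an interval of 0.946-fold to 1.48-fold. It was 0.12 without wild type 2. An exact two-sided permutation test over all 924 ways of splitting the arrays 6 to 6 gave p = 0.171, and for the dimmer probe set p = 0.281 at a difference of 0.25 (adjusted p = 0.281 for both, over 2 tests). The smallest p this test can give is 0.00216. The interaction for the brightest probe set was 0.45 (SE 0.29, adjusted p = 0.951), so the estimate of Hdac2 loss with Hopx absent was not shown to differ from that with Hopx present.

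**Figure D1:**
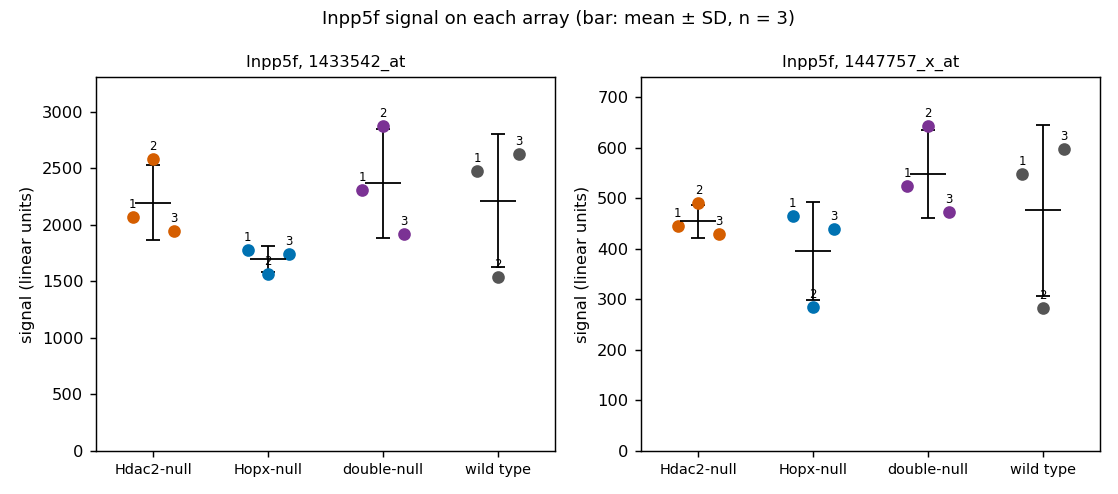
Inpp5f signal on a linear scale for the probe sets 1433542_at (left) and 1447757_x_at (right) in the 4 genotypes. Points are single arrays with their replicate number, and bars give the mean ± SD (n = 3). All 3 double-null points lie above all 3 Hopx-null points in both panels, and the wild type points span most of the range.

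Both measured Inpp5f probe sets varied together over the arrays, with Pearson r = 0.89 and Spearman rho = 0.90 over 12 arrays, and r = 0.89 within genotypes after each genotype's mean was removed. The probe sets of other genes with the pattern most like 1433542_at were those of Kctd5 (r = 0.93, rho = 0.88), Septin6 (r = 0.88, rho = 0.87), Ccdc71l (r = 0.88, rho = 0.88), Zfp655 (r = 0.88, rho = 0.87) and Piezo2 (r = 0.88, rho = 0.90). These are the 5 highest of all tested probe sets over the same 12 arrays, so their size is a description and has no test. Without double-null 2 and wild type 3, the arrays farthest from the Inpp5f median, the 5 values of r lay between 0.83 and 0.89. Within genotypes they lay between 0.82 and 0.92.

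Pik3ca, the catalytic subunit p110 alpha (chromosome 3, bases 32397065 to 32466112), had 6 probe sets, of which 5 were tested. The brightest, 1460326_at, averaged 8383 ± 32.4 units in Hdac2-null, 8223 ± 485 units in Hopx-null and 8689 ± 516 units in double-null ventricles, against 8376 ± 150 units in wild type (SD, n = 3 each). Its log2 difference between arrays without and with Hdac2 was 0.04 (SE 0.04, interval -0.04 to 0.12), that is 1.03-fold with an interval of 0.972-fold to 1.09-fold.

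A second Pik3ca probe set, 1453134_at, had the smallest p of the 22 in double-null against wild type. It gave 2599, 2390 and 2703 units in Hdac2-null, 2591, 2855 and 2890 units in Hopx-null and 2672, 2898 and 3493 units in double-null ventricles, against 2315, 2420 and 2646 units in wild type. All double-null arrays were above all wild type arrays. The log2 fold change was 0.29 (SE 0.10, unadjusted p = 0.0145, adjusted p = 0.631), and it was not called in any alternative, with adjusted p from 0.221 to 0.968. Against Hdac2-null it was 0.23 (SE 0.10, adjusted p = 0.419), with overlapping groups, and Hopx-null against wild type gave 0.18 (SE 0.10, adjusted p = 1).

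No other Pik3ca probe set lay apart in that comparison. Probe set 1423144_at gave 629, 738 and 742 units in double-null ventricles, against 846, 908 and 787 units in Hdac2-null ventricles, so it lay lower on every double-null array. That difference was -0.27 (SE 0.13, adjusted p = 0.472), and against wild type it was -0.27 (SE 0.13, adjusted p = 0.667). The correlation of 1423144_at with 1453134_at over the 12 arrays was -0.54 (rho = -0.62), although both are assigned to Pik3ca. Their positions along the transcript are not part of the annotation used. Probe sets 1429434_at and 1429435_x_at lay between 765 and 1175 units and between 796 and 1359 units, and 1440054_at stayed at or below 18.6 units.

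Pik3cb, the catalytic subunit p110 beta (chromosome 9, bases 99038402 to 99140235), had 1 probe set, with little spread. It averaged 184 ± 7.32 units in Hdac2-null, 202 ± 3.70 units in Hopx-null and 196 ± 8.92 units in double-null ventricles, against 193 ± 10.3 units in wild type. The log2 difference without against with Hdac2 was -0.05 (SE 0.06, interval -0.18 to 0.07).

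Pik3r1, which encodes the p85 alpha family of regulatory subunits (chromosome 13, bases 101680761 to 101768217), had 3 tested probe sets, and its brightest, 1425515_at, averaged 2712 ± 119 units in Hdac2-null, 2282 ± 504 units in Hopx-null and 2481 ± 354 units in double-null ventricles, against 2318 ± 361 units in wild type. Hdac2-null values were high on all 3 arrays but overlapped with wild type 2, at 2735 units. The difference without against with Hdac2 was 0.19 (SE 0.12, interval -0.08 to 0.45, adjusted p = 0.66). Probe set 1425514_at gave 608, 626 and 580 units in double-null ventricles, against 556, 561 and 399 units in wild type. Those groups lay apart, at a log2 difference of 0.28 (SE 0.21, adjusted p = 0.745). The second brightest, 1438682_at, averaged 2512 ± 291 units in Hdac2-null and 2136 ± 202 units in Hopx-null ventricles. In double-null ventricles it averaged 2252 ± 284 units, against 2259 ± 240 units in wild type, and those groups overlapped. Over the 12 arrays it correlated with 1425515_at at r = 0.76 (rho 0.91). Probe set 1451737_at lay below 5 units on all arrays and was not tested.

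Pdpk1, the kinase that phosphorylates Akt in its activation loop (chromosome 17, bases 24073680 to 24155619), had 2 probe sets. Signal at 1415729_at averaged 3084 ± 120 units in Hdac2-null, 2801 ± 126 units in Hopx-null and 2799 ± 158 units in double-null ventricles, against 2924 ± 174 units in wild type. Double-null arrays were all below Hdac2-null arrays (log2 -0.14, SE 0.07, adjusted p = 0.449). The difference without against with Hdac2 was 0.04 (SE 0.05, interval -0.06 to 0.14).

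The dimmer Pdpk1 probe set, 1416501_at, ranged 3.58-fold over the arrays. It gave 525, 691 and 575 units in Hdac2-null, 684, 387 and 438 units in Hopx-null and 459, 479 and 278 units in double-null ventricles, against 994, 392 and 583 units in wild type. Double-null lay below Hdac2-null on every array (log2 -0.59, SE 0.34, adjusted p = 0.538). Double-null against wild type gave -0.63 (SE 0.34, adjusted p = 0.681), and -0.28 without wild type 1, which was the highest array. In double-null against Hdac2-null, 5 of the 22 probe sets (both of Pdpk1, 1 of Pik3ca and 2 of Gsk3b) lay apart with lower values in double-null, against 14.4% of all tested probe sets. With higher values in double-null 1 of the 22 did, of Akt2, against 12.6% of all.

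**Figure D2:**
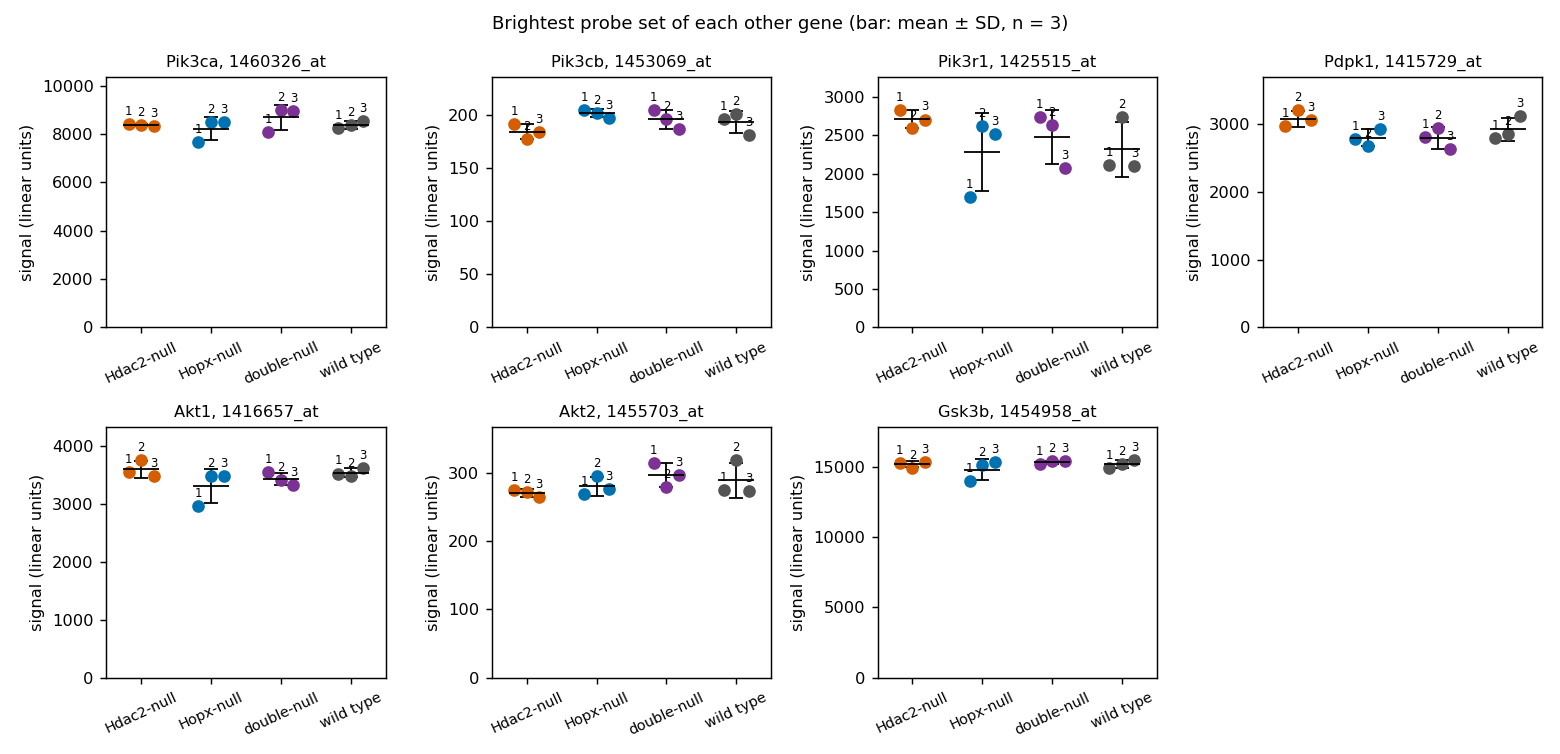
Signal of the brightest probe set of each of the other 7 genes on a linear scale, by genotype. Points are single arrays with their replicate number, and bars give the mean ± SD (n = 3). The Hopx-null 1 array is the lowest of the 12 for Pik3ca, Pik3r1, Akt1 and Gsk3b, at 7663, 1702, 2969 and 13980 units.

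Akt1, the isoform known for its part in cell growth and survival (chromosome 12, bases 112653821 to 112674884), had 1 probe set well above the floor. Probe set 1416657_at averaged 3603 ± 144 units in Hdac2-null, 3316 ± 300 units in Hopx-null and 3437 ± 109 units in double-null ventricles, against 3549 ± 70.4 units in wild type. The lowest array was Hopx-null 1, at 2969 units, and the other 11 lay between 3339 and 3764 units. The difference without against with Hdac2 was 0.04 (SE 0.05, interval -0.07 to 0.14). Probe set 1425711_a_at exceeded the floor on 2 of 12 arrays, so its fold changes are mostly set by the floor, and the other 2 probe sets stayed under 5 units.

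Akt2, the isoform known for its part in insulin-stimulated glucose uptake (chromosome 7, bases 27591552 to 27640826), was measured by 1455703_at at 270 ± 5.47 units in Hdac2-null, 280 ± 13.7 units in Hopx-null and 297 ± 17.9 units in double-null ventricles, against 289 ± 25.7 units in wild type. Double-null lay above Hdac2-null on every array (log2 0.13, SE 0.10, adjusted p = 0.623). The difference without against with Hdac2 was -0.01 (SE 0.07, interval -0.16 to 0.14). Probe set 1424480_s_at gave 109, 109 and 112 units in double-null ventricles, against 132, 122 and 117 units in wild type, and lay apart at a difference of -0.17 (SE 0.11, adjusted p = 0.723). Its difference without against with Hdac2 was -0.13 (SE 0.08, adjusted p = 0.633). The third probe set, 1421324_a_at, stayed at or below 18.3 units.

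Gsk3b, the kinase at the end of the chain (chromosome 16, bases 38089001 to 38246084), gave both the smallest and the largest fold range over the arrays among the 22 tested probe sets. The brightest, 1454958_at, averaged 15176 ± 207 units in Hdac2-null, 14811 ± 730 units in Hopx-null and 15332 ± 103 units in double-null ventricles, against 15198 ± 284 units in wild type. Its lowest and highest arrays differed 1.11-fold. The difference without against with Hdac2 was 0.02 (SE 0.03, interval -0.03 to 0.08, adjusted p = 0.788), the narrowest interval among the 22.

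Probe set 1451020_at of the same gene ranged 3.73-fold. It gave 441, 475 and 463 units in Hdac2-null, 176, 543 and 322 units in Hopx-null and 389, 379 and 286 units in double-null ventricles, against 146, 464 and 475 units in wild type. Wild type 1 and Hopx-null 1 were low, and the other 10 arrays lay between 286 and 543 units. Probe set 1437001_at gave 2922, 3137 and 2754 units in Hdac2-null, 1777, 2792 and 2542 units in Hopx-null and 2235, 2467 and 2217 units in double-null ventricles, against 1625, 2882 and 2613 units in wild type, and was low on the same arrays. The log2 fold change of Hdac2-null against wild type was 0.53 (SE 0.47, adjusted p = 0.872) at 1451020_at and 0.35 (SE 0.21, adjusted p = 0.865) at 1437001_at. Without wild type 1 and Hopx-null 1 these values were -0.03 and 0.10. Double-null arrays lay below all Hdac2-null arrays at 1451020_at (log2 -0.40, SE 0.47, adjusted p = 0.781) and at 1437001_at (log2 -0.35, SE 0.21, adjusted p = 0.549). The Gapdh 3′ to 5′ ratio of the arrays set these groups apart as well, at 0.99, 1.02 and 1.07 in double-null ventricles, against 0.94, 0.84 and 0.93 in Hdac2-null ventricles (log2). The beta-actin ratio did not set them apart, at 2.68, 2.66 and 2.79 in double-null, against 2.79, 2.63 and 2.79 in Hdac2-null ventricles. On wild type 1 and Hopx-null 1 the beta-actin ratio was 2.76, within the range of the other arrays.

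The signal of these Gsk3b probe sets moved with the Gapdh 3′ to 5′ ratio of the array. At 1437001_at Pearson r was -0.87 and Spearman rho -0.90 over 12 arrays (permutation p = 0.0001 and 0.00017, adjusted p = 0.0022 and 0.00374 over 22 probe sets). At 1451020_at r was -0.82 and rho -0.74 (permutation p = 0.00142 and 0.00766, adjusted p = 0.0156 and 0.0804). Without wild type 1 and Hdac2-null 2, the arrays with the ratios farthest from the median, r was -0.75 and -0.63, and within genotypes it was -0.89 and -0.86. For the other 20 probe sets of the 8 genes no adjusted p was under 0.05, and at the brightest Gsk3b probe set r was -0.17 (rho 0.15). Relations with the beta-actin ratio were not tested, nor was the part of RNA integrity in the Gsk3b differences between genotypes.

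**Figure D3:**
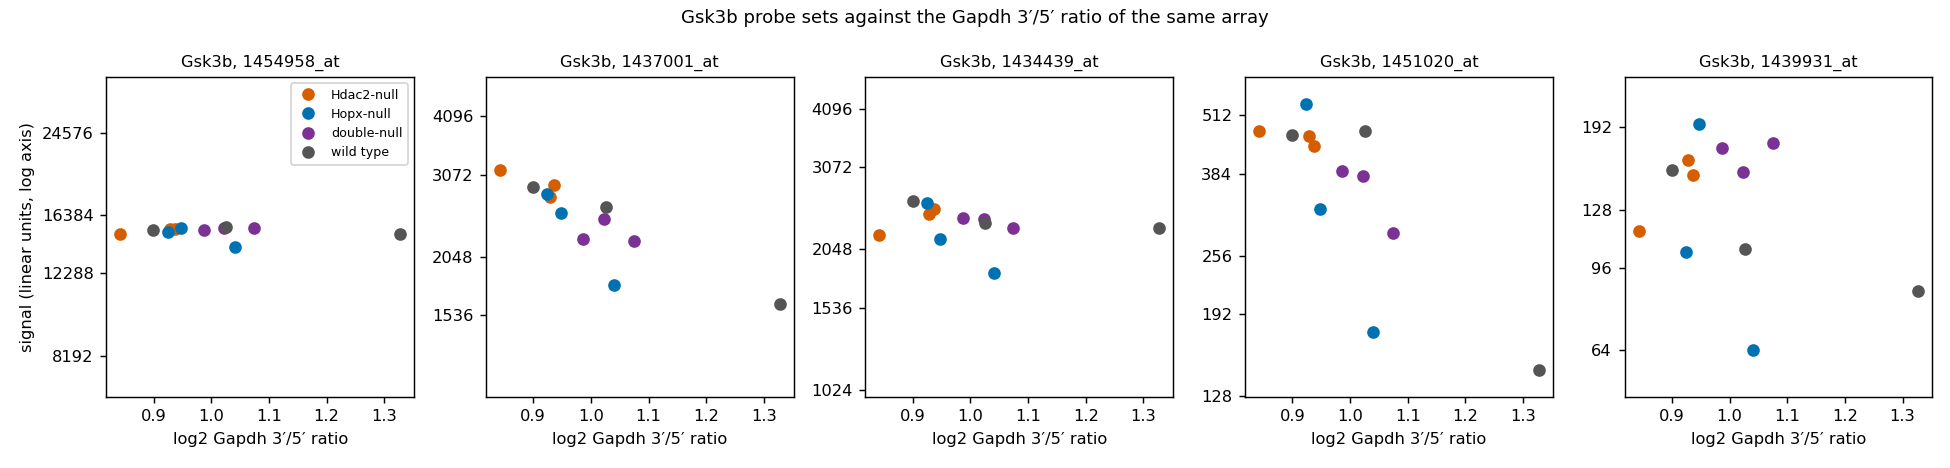
Signal of the 5 tested Gsk3b probe sets (log axis, the same fold span in each panel) against the log2 Gapdh 3′ to 5′ ratio of the same array, with points coloured by genotype. Signal falls along the ratio at 1437001_at and 1451020_at, where r was -0.87 and -0.82, and is nearly flat at 1454958_at.

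Of the remaining Gsk3b probe sets, 1439931_at was dim. It gave 152, 115 and 164 units in Hdac2-null, 64.1, 104 and 195 units in Hopx-null and 173, 154 and 178 units in double-null ventricles, against 85.5, 155 and 105 units in wild type. Double-null against wild type gave 0.59 (SE 0.30, adjusted p = 0.667), and arrays without against arrays with Hdac2 gave 0.42 (SE 0.21, adjusted p = 0.585). Double-null against Hopx-null gave 0.50 (SE 0.30, unadjusted p = 0.123 in the limma fit), with overlapping groups. Probe set 1434439_at lay between 1820 and 2602 units, and 1439949_at stayed under 8 units. No Gsk3b probe set was called when any single array was left out.

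Over all 8 genes, the counts of probe sets were read against those of the whole array. In Hdac2-null against wild type 0 of 22 were called, where 0.0191% of all tested probe sets were, and 0 of 22 had an unadjusted p under 0.05, where 5.49% of all did. In Hopx-null against wild type the counts were also 0 and 0 of 22, with 0.0127% of all probe sets called and 2.83% at an unadjusted p under 0.05. In double-null against wild type none of the 22 was called and 1, of Pik3ca, had an unadjusted p under 0.05, against 0.0382% and 7.64% of all. In double-null against Hdac2-null and in double-null against Hopx-null the counts were 0 and 1 each. There 0.0191% of all were called in both comparisons, and 11.5% and 7.9% of all had an unadjusted p under 0.05.

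Combining the arrays by Hdac2 alone gives 6 per side, and again 0 of 22 were called, with 0 at an unadjusted p under 0.05, against 0.0255% and 9.13% of all. The estimate was higher without Hdac2 for 14 of the 22, against 45.7% of all tested probe sets. The interaction, which measures whether the effects of both losses add on the log2 scale, gave 0 called and 0 with an unadjusted p under 0.05, against 0% and 4.33% of all. Median log2 fold changes over the 22 probe sets against wild type were 0.01 for Hdac2-null, -0.04 for Hopx-null and 0.03 for double-null ventricles. Over all tested probe sets they were -0.01, 0 and -0.01. The 3 comparisons share the wild type arrays. In double-null against wild type the arrays of both groups did not overlap for 3 of the 22, 2 higher and 1 lower in double-null, against 6.55% and 9.18% of all. The plot of log2 fold changes shows how the width of the intervals differed between probe sets.

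**Figure D4:**
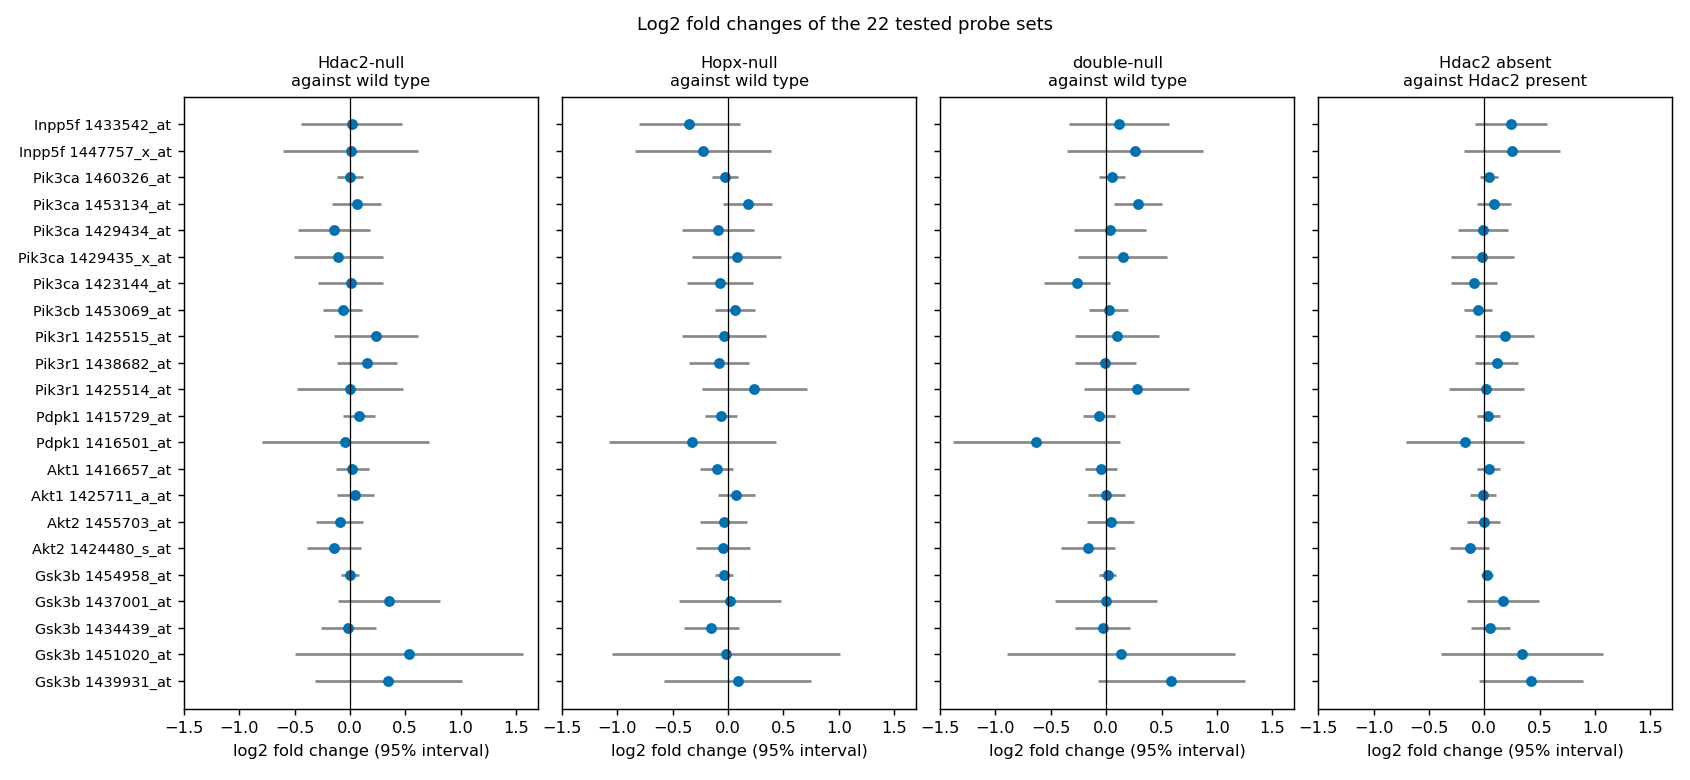
Log2 fold changes of the 22 tested probe sets (rows) in 4 comparisons (panels), with points for the estimate and lines for the 95% interval from the limma fit. The interval of the brightest Gsk3b probe set in Hdac2-null against wild type runs from -0.08 to 0.08, and that of Gsk3b 1451020_at runs from -0.50 to 1.56.

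Probe sets of one gene agreed only in part. Over 27 pairs of tested probe sets of the same gene the median r was 0.43, from -0.54 between the Pik3ca sets named above to 0.94 between Gsk3b 1437001_at and 1451020_at. Over 204 pairs from different genes the median r was -0.02, from -0.78 to 0.79. All these values share the same 12 arrays.

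The wider pathway was described with 57 further genes in 5 lists. Of these, 53 had a single-gene probe set in the annotation used, and 43 were tested, each by its brightest tested probe set. None of the 43 was called by limma in any of the 7 comparisons, and between 1 and 4 had an unadjusted p under 0.05, where 2.83% to 11.5% of all tested probe sets had. Without against with Hdac2, 28 of 43 had a higher and 15 a lower estimate (median 0.04, against -0.01 over all tested probe sets, of which 45.7% were higher). In that comparison 3 of the 43 had an unadjusted p under 0.05, against 9.13% of all. The same 45.7% stands beside the count of higher estimates in each list that follows. It is a share of all tested probe sets, dim and repeated ones of a gene included. The lists count each gene once, by its brightest, so the counts are not strictly alike.

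Among ligands, receptors and adaptors, 7 of 7 tested genes had a higher estimate without Hdac2, against 45.7% of all tested probe sets, and 0 were called (median 0.07). Igf2, the fetal growth factor, averaged 25512 ± 669 units in Hdac2-null, 23231 ± 249 units in Hopx-null and 24006 ± 108 units in double-null ventricles, against 23746 ± 1582 units in wild type. Its difference without against with Hdac2 was 0.08 (SE 0.03, adjusted p = 0.524). Igf1r, the receptor, gave 0.10 (SE 0.05, adjusted p = 0.593) in that comparison and -0.11 (SE 0.07, adjusted p = 1) in Hopx-null against wild type. The adaptor Irs1 gave -0.16 (SE 0.06, adjusted p = 1) in Hopx-null against wild type.

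Of the other PI3K subunits, 1 of 4 had a higher estimate without Hdac2. The class II enzyme Pik3c2a measured 0.15 (SE 0.08, adjusted p = 0.587), and the regulatory subunit Pik3r3 measured -0.18 (SE 0.10, adjusted p = 0.622). In Hopx-null against wild type, Pik3c3, the class III enzyme, gave 0.32 (SE 0.16) and Pik3c2a -0.05 (SE 0.11), each with an adjusted p of 1.

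Of 11 other phosphoinositide phosphatases, 4 had a higher and 7 a lower estimate without Hdac2. Inpp5k, a phosphatase found in skeletal muscle and kidney, had the smallest p. It averaged 316 ± 27.4 units in Hdac2-null, 366 ± 24.6 units in Hopx-null and 303 ± 58.6 units in double-null ventricles, against 422 ± 55.3 units in wild type. Its difference without against with Hdac2 was -0.35 (SE 0.11, unadjusted p = 0.00948, adjusted p = 0.46), and in Hopx-null against wild type -0.20 (SE 0.16). Sacm1l, which like Inpp5f carries a Sac domain, gave -0.16 (SE 0.09, adjusted p = 0.631) without against with Hdac2. Inppl1, known as Ship2, gave -0.22 (SE 0.17, adjusted p = 1) in Hopx-null against wild type.

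In the Akt branch, 9 of 13 genes had a higher estimate without Hdac2. The Akt phosphatase Phlpp1 gave 0.09 (SE 0.03, unadjusted p = 0.0223, adjusted p = 0.522), and the forkhead factor Foxo3, an Akt substrate, gave 0.08 (SE 0.04, adjusted p = 0.571). In Hopx-null against wild type, Foxo4 gave -0.15 (SE 0.10) and Tsc2, a brake on mTOR signalling, -0.41 (SE 0.30), each with an adjusted p of 1. The Tsc2 estimate was 0.0014 without wild type 1 and Hopx-null 1.

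In the Gsk3 branch, 7 of 8 genes had a higher estimate without Hdac2, and none had an unadjusted p under 0.05. Apc, a scaffold of the beta-catenin destruction complex, gave 0.06 (SE 0.05), and Gys1, the muscle glycogen synthase that Gsk3 phosphorylates, gave 0.09 (SE 0.10). In Hopx-null against wild type, Ctnnb1, beta-catenin, gave -0.05 (SE 0.03) and Nfatc4 gave -0.13 (SE 0.12), with most Nfatc4 signals near the floor. Adjusted p-values for these 4 were 0.721 or more.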

How the data were processed

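Biotin-labelled cRNA was hybridised, per the labels' protocols. The authors deposited a table of intensity values on a linear scale, used here with no further normalisation. MAS5 is named in the submitters' processing notes, without a version. Between 48.3% and 48.8% of the values of an array lie within 1 unit of one low level, and how that arose is not stated. The floor of 82.5 units is 0.1 times the mean over arrays of the 2% trimmed mean, without 64 control probe sets. A fold change across the floor understates the difference.

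The platform annotation gave 1 gene to 34945 probe sets, several to 932 and none to 9160. Symbols were updated by gene identifier against the GRCm38.p6 reference table (34741 matched). Tested probe sets reached the 40th percentile of mean signal and rose above the floor on at least 1 array. The fit used limma 3.58.1 in R 4.3.3, with 1 coefficient per genotype, an intensity trend and 8 residual degrees of freedom, and was tested on simulated data. Intensities have no read depth, and 3 arrays per group limit the precision.

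The labels give the same replicate numbers to every genotype. Deviations from the group means correlated for each number between Hopx-null and wild type (r = 0.49, 0.46 and 0.18 across probe sets). A pairing of these numbers would rest on the data alone, as the labels do not state one. Other pairs of groups had at least 1 number with r under 0.1. Among them, r was 0.18, 0.17 and 0.09 between Hdac2-null and Hopx-null, and 0.27, 0.08 and 0.27 between Hdac2-null and double-null. The members and lists were chosen with earlier results of these data known. The text names the 8 genes, Hdac2, Hopx, the 5 probe sets most like Inpp5f and, of each list, any called gene and those with the smallest p for Hdac2 status and for Hopx-null against wild type, 2 each. Tnnt2 and Xist were named after their values were seen. Single probe sets have a fold change in the text where the unadjusted p was under 0.15, groups lay apart, or they were the brightest of their gene, also chosen after the values were seen.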

Additional observations from a re-analysis of the deposited data

How the results depend on the processing

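Over 23 alternative settings, 12 of which left out 1 array, no probe set of the 8 genes was called, and the smallest adjusted p was 0.102 (Pik3ca 1453134_at, double-null against Hdac2-null, array quality weights). Of 1377 recomputed fold changes 1352 kept their direction and 25 turned, all of these without a call, and the cause was not tested. Inpp5f in Hdac2-null against wild type was -0.021 with Xist as a term and from -0.23 to 0.16 with 1 array left out, in double-null against wild type from -0.13 to 0.26, and in double-null against Hdac2-null from -0.051 to 0.24. In double-null against Hopx-null it stayed between 0.32 and 0.61 with 1 array left out, in Hopx-null against wild type between -0.59 and -0.21, and by Hdac2 between 0.12 and 0.31. Array weights moved it to 0.069 in Hdac2-null and 0.42 in double-null against wild type, 0.35 in double-null against Hdac2-null, 0.68 in double-null against Hopx-null and 0.38 by Hdac2, against 0.017, 0.12, 0.099, 0.47 and 0.24 without weights, with adjusted p of 0.156 or more. Its probe set 1447757_x_at in Hdac2-null against wild type was -0.016 after quantile normalisation, -0.022 with Xist as a term and from -0.34 to 0.21 with 1 array left out, and in double-null against wild type from -0.077 to 0.47. Without wild type 1 and Hopx-null 1, a setting chosen after seeing the data, the difference without against with Hdac2 was -0.0021 at Akt1 1416657_at and -0.0028 at Gsk3b 1454958_at, Hdac2-null against wild type was -0.031 at Gsk3b 1451020_at, and Hopx-null against wild type was 0.0014 at Tsc2. With 1 array left out, the difference by Hdac2 ran from -0.00050 to 0.058 at Akt1 1416657_at and from -0.027 to 0.030 at Akt2 1455703_at, where it was 0.0024 with Xist as a term. With 1 array left out, Gsk3b 1451020_at ran from -0.031 to 0.82 in Hdac2-null against wild type, and Pik3c2a from -0.15 to 0.040 in Hopx-null against wild type. With the floor doubled, Gsk3b 1439931_at was -0.021 in double-null against Hopx-null and -0.010 by Hdac2, against 0.50 and 0.42 with the main floor. With the replicate block, Inpp5f in double-null against Hopx-null was 0.47 (unadjusted 0.0681, adjusted p = 0.539 in limma), and the block changed no call of a member in any comparison. Counts over all tested probe sets moved more: double-null against Hdac2-null called 1477 with array weights, against 3 without weights, and without wild type 3 the counts were 13 for Hdac2-null and 13 for double-null against wild type and 20 by Hdac2, against 3, 6 and 4 with it.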
